A study of Sus scrofa with 6 samples.

Results

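Adipokines are proteins that fat cells release into the blood or the surrounding tissue. Of the genes for leptin (LEP), adiponectin (ADIPOQ), angiotensinogen (AGT), complement factor D, also called adipsin (CFD), and resistin (RETN), the array carried 8 probe sets, among 24123 in all. A probe set is a group of short probes on the array that report 1 transcript with 1 signal. They were taken by name: each probe set whose only gene symbol in the platform annotation is 1 of these 5 symbols, with the 2 leptin probe sets that the array's maker placed among its controls included. LEP had 4 probe sets and the other 4 genes had 1 each. Control probe sets named for angiotensin carry the symbol NLN in that annotation, not AGT, and were not counted. Among the 6765 gene symbols on the array, these are 5.

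The tissue was subcutaneous fat from crossbred male pigs (Pietrain sire, Landrace dam), taken from the middle backfat layer at rib 6 when the animals were 175 days old. Boars had kept their testes, while barrows, their full brothers, had been surgically castrated at 7 days. Both kinds were weaned at 30 days and ate without restriction, and 15 brother pairs gave 30 pigs. Each of the 6 Affymetrix arrays held RNA pooled in equal amounts from 5 pigs of 1 kind, so there were 3 boar arrays and 3 barrow arrays, and the p-values below reflect how far pools differed and say nothing of single pigs. The pools carry numbers 1 to 3 in both groups, and the pools of the same number were treated as pairs where a paired value is given.

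Leptin is a hormone that fat releases in proportion to its stores and that acts on receptors in the brain to restrain feeding. Adiponectin is abundant in blood, acts through the receptors ADIPOR1 and ADIPOR2, and raises insulin sensitivity. Angiotensinogen is the precursor from which renin and angiotensin-converting enzyme make angiotensin II, and adipsin is the protease that starts the alternative complement pathway by cutting factor B. Resistin is a cysteine-rich hormone that mouse fat makes and that human macrophages make.

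In barrow fat angiotensinogen and the brightest of 4 leptin probe sets were called higher than in boar fat. Adiponectin and adipsin did not pass the test, and resistin was too dim to enter it. The second leptin probe set did not pass either (limma adjusted p = 0.24), and the 2 leptin control sets had overlapping groups. The leptin and angiotensinogen calls were lost in some fits with 1 pool left out and in the fit without an intensity trend. Leptin in its brightest probe set rose 1.5-fold and angiotensinogen 1.37-fold. Of the 8 probe sets 5 entered the comparison across 14399 probe sets, which held those with a mean signal of about 92.7 or more over all arrays, controls left out. Of these 5, 2 were called at an adjusted p under 0.05 (limma, Benjamini-Hochberg over all 14399) and both were higher in barrows. Over all tested probe sets 1.16% were called and 0.701% were called and higher in barrows. The groups did not overlap in 3 of the 5, all higher in barrows, where 8.38% of all tested probe sets showed that. The median log2 difference of the 5 was 0.45, against -0.014 over all tested probe sets. Leptin supplied 2 of these 5 values, 0.58 and 0.45, and both its sets are among the 3 without overlap. Angiotensinogen had 0.45, adiponectin -0.07 and adipsin -0.21. The median and the count without overlap therefore weigh leptin more than any other gene. With the pool number as a block the brightest leptin probe set and angiotensinogen were again the 2 called, where 1.49% of all tested were called and higher in barrows.

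**Figure D1:**
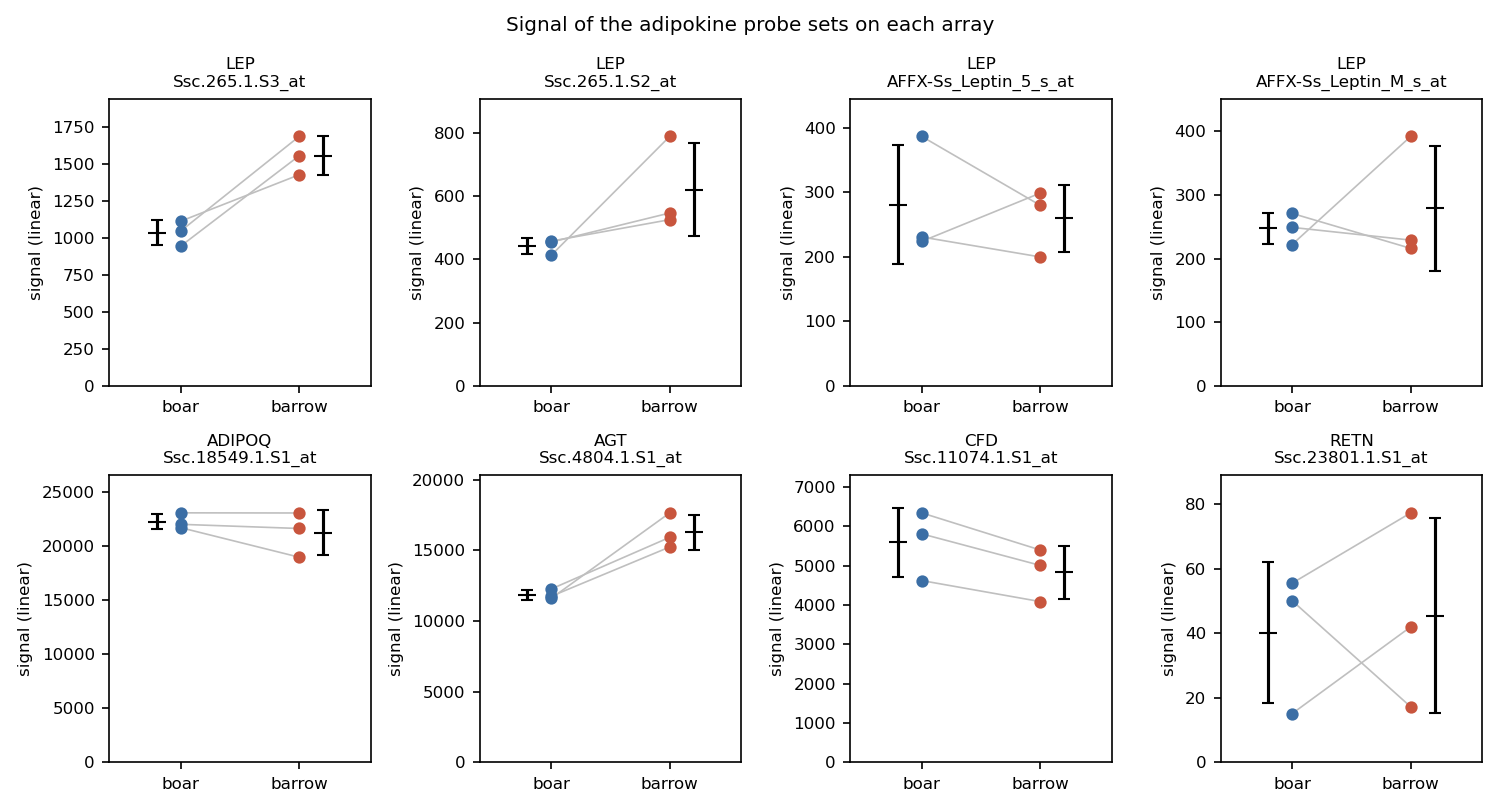
Signal (linear scale from 0) of each of the 8 adipokine probe sets on the 3 boar arrays (blue) and the 3 barrow arrays (red). Grey lines join pools of the same number and black bars give the mean and SD (n = 3). The groups are separate for LEP in the probe sets ending in S3_at and S2_at and for AGT, and overlap in the other 5 panels.

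The brightest leptin probe set (S3 by the end of its name) had signals of 946, 1048 and 1115 on the boar arrays and 1559, 1690 and 1430 on the barrow arrays. Every barrow pool lay above every boar pool, and the lowest barrow signal, in barrow replicate 3, exceeded the highest boar signal, in boar replicate 3. The mean rose from 1036 ± 84.9 to 1559 ± 130 (SD, n = 3 each). On the scale of log2(signal + 16) the rise was 0.58 (SE 0.10, 95% CI 0.37 to 0.80, limma adjusted p = 0.021, n = 3 each), a 1.5-fold difference with a 95% CI of 1.29 to 1.74. The pairs of equal number rose by 0.71, 0.68 and 0.35. The call was lost when boar replicate 1 was left out (log2 difference 0.52, limma adjusted p = 0.14), when boar replicate 3 was left out (0.64, limma adjusted p = 0.067), when barrow replicate 1 was left out (0.58, limma adjusted p = 0.091) and when the variance was fitted without a trend on intensity (limma adjusted p = 0.11). Over all alternatives the limma adjusted p of this probe set ran from 0.0067 to 0.14.

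The second leptin probe set (S2) had 457, 412 and 454 in boars and 525, 788 and 546 in barrows. The groups were again separate, but barrow replicate 2 stood well above the other barrow pools, so the spread between barrows was wide (620 ± 147, against 441 ± 25.2 in boars, SD, n = 3 each). The log2 difference was 0.45 (95% CI 0.12 to 0.79) and did not pass (limma adjusted p = 0.24, and 0.19 with the block). Without barrow replicate 2 the difference was 0.27. Averaging both tested leptin probe sets and refitting over all genes gave a log2 difference of 0.52 (95% CI 0.27 to 0.77, limma adjusted p = 0.045).

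The leptin control probe sets gave another picture. Their names place AFFX-Ss_Leptin_5_s_at toward the 5′ end of the transcript and AFFX-Ss_Leptin_M_s_at in its middle, and no 3′ member carried the LEP symbol. The 5′ set had signals of 231, 224 and 387 in boars and 200, 299 and 280 in barrows. The highest signal here was a boar's, and the log2 difference was -0.08 (exact permutation p = 0.8, 2-sided, n = 3 each). The middle set had 249, 222 and 271 in boars and 229, 392 and 216 in barrows, a log2 difference of 0.12 (exact permutation p = 0.9). With 3 against 3 arrays this exact test cannot give a p below 0.1. In both control sets the only pair that was higher in the barrow pool was number 2, at 0.39 and 0.78.

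Whether the leptin probe sets changed by different amounts was tested on the within-array log2 ratio, which any scaling common to an array leaves almost unchanged. The brightest set rose by 0.13 more than S2, with overlapping groups (exact permutation p = 0.4, n = 3 each). It rose by 0.66 more than the 5′ control set, with groups that did not overlap (exact permutation p = 0.1, the smallest possible, and 0.23 adjusted over the 7 comparisons of this kind), and by 0.46 more than the middle control set (exact permutation p = 0.2, adjusted 0.35). None of these differences passed. Over the 6 arrays the brightest set correlated with S2 at r = 0.84 (Spearman's rho 0.77), with the middle set at r = 0.41 and with the 5′ set at r = 0.02. After centring each group on its own mean these values were 0.52, 0.67 and 0.49, and S2 and the middle set correlated at 0.98, both with barrow replicate 2 on top. The probe sets share the arrays and the RNA, and 6 arrays are few, so these are descriptions.

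Angiotensinogen had signals of 11597, 12262 and 11746 in boars and 17654, 15924 and 15240 in barrows. The boar pools lay close together and every barrow pool lay clearly above them, with barrow replicate 1 highest. The mean rose from 11868 ± 349 to 16273 ± 1244 (SD, n = 3 each), a log2 difference of 0.45 (SE 0.07, 95% CI 0.30 to 0.60, limma adjusted p = 0.012, and 0.013 with the block). As a fold this was 1.37 with a 95% CI of 1.23 to 1.52. The pairs rose by 0.61, 0.38 and 0.38. The call was lost without boar replicate 1 (0.44, limma adjusted p = 0.10), without boar replicate 3 (0.45, limma adjusted p = 0.077), without barrow replicate 1 (0.39, limma adjusted p = 0.051) and without the intensity trend (limma adjusted p = 0.14). Its difference from the rise of leptin's brightest probe set was 0.13 (exact permutation p = 0.3, adjusted 0.42, n = 3 each).

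**Figure D2:**
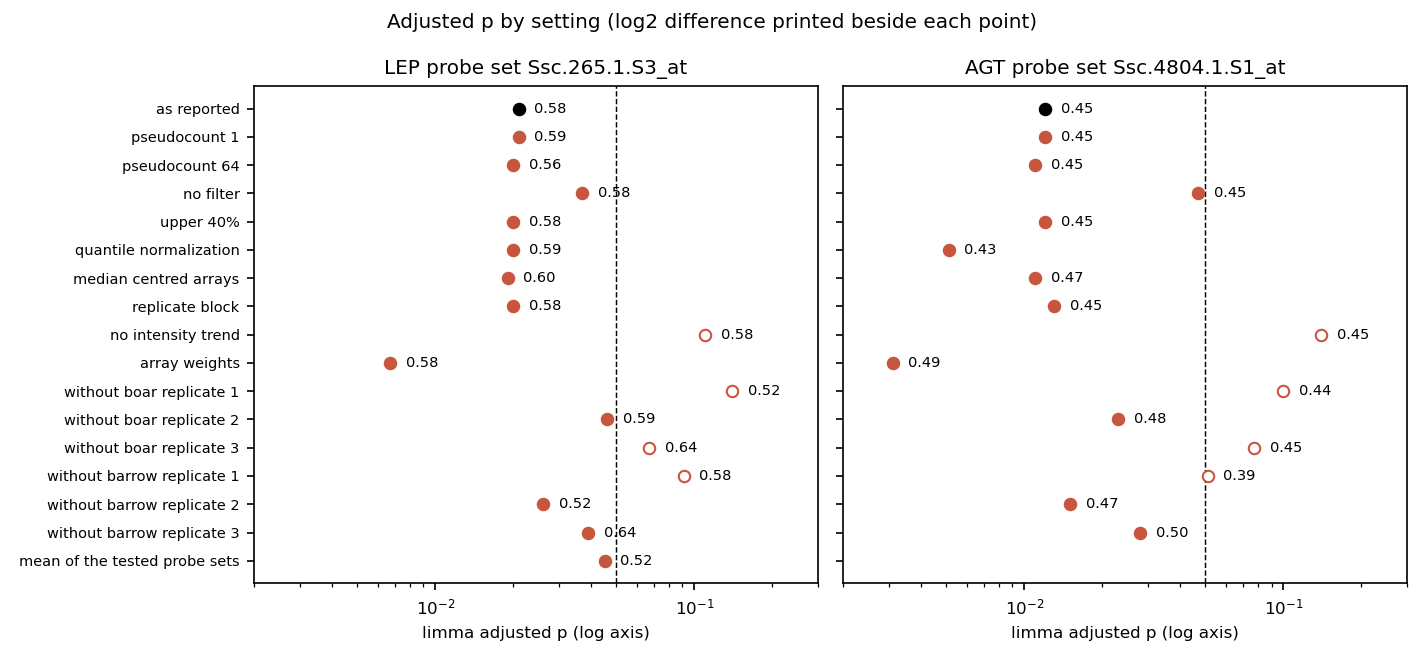
Limma adjusted p (log axis) of the brightest LEP probe set (left) and the AGT probe set (right) under each setting, with the log2 difference printed beside each point. The dashed line marks 0.05, black is the value as reported, filled red passes and open red does not. In both panels the open points are the fits without boar replicate 1, boar replicate 3 or barrow replicate 1 and the fit without an intensity trend, while the log2 differences stay between 0.52 and 0.64 for LEP and between 0.39 and 0.50 for AGT.

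Adiponectin had signals of 21993, 23053 and 21686 in boars and 21607, 23039 and 18954 in barrows. The groups overlapped, and only barrow replicate 3 fell below the boar range by more than the distance between boar pools. The log2 difference was -0.07 (95% CI -0.24 to 0.09, limma adjusted p = 0.76, and 0.59 with the block), so the interval reaches from 1.18-fold higher in boars to 1.07-fold higher in barrows. Without barrow replicate 3 the difference was 0.00. The signals stood near the top of the scale, where the brightest probe set of an array read 27591 to 32517, and the part of signal saturation in this result was not tested. Leptin's brightest probe set rose by 0.66 more than adiponectin on the log2 scale, and the within-array ratio of leptin to adiponectin was higher in each barrow pool than in any boar pool (SD 0.13 in boars and 0.03 in barrows, exact permutation p = 0.1, the smallest possible, adjusted 0.23, n = 3 each).

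**Figure D3:**
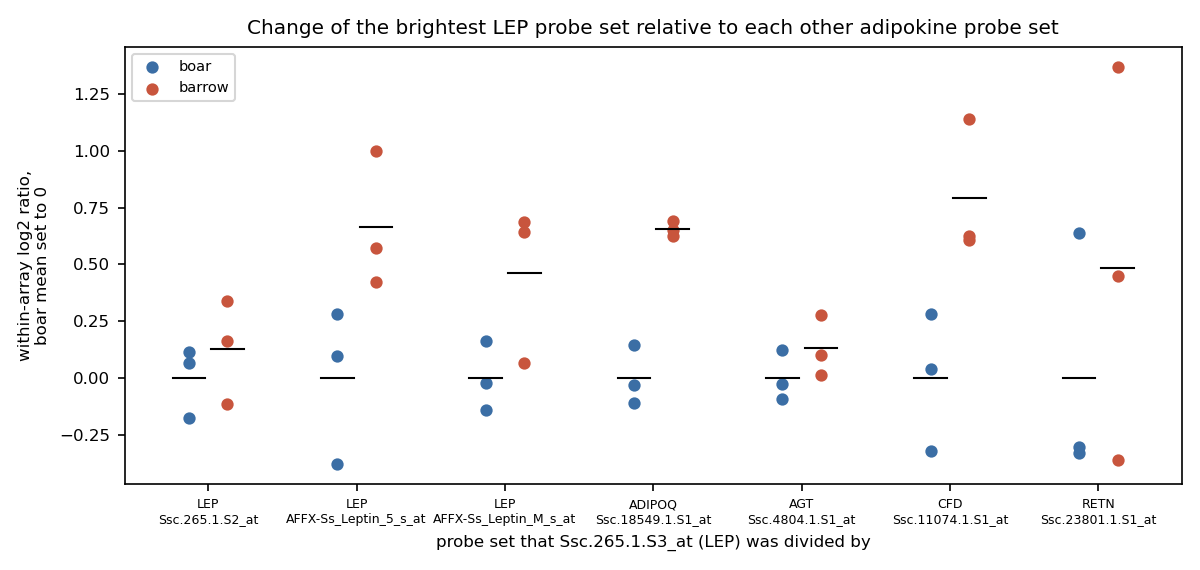
Within-array log2 ratio of the brightest LEP probe set to each other adipokine probe set, with the boar mean set to 0, on the boar arrays (blue) and the barrow arrays (red). Black bars are group means (n = 3 each). The barrow points lie above all boar points for the ratios to the 5′ LEP control, ADIPOQ and CFD, with mean shifts of 0.66, 0.66 and 0.79, and overlap the boar points in the other 4. All the ratios share this LEP probe set, whose own groups were separate, so they are not independent results.

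Adipsin had signals of 6344, 4623 and 5811 in boars and 5399, 4088 and 5008 in barrows. The groups overlapped, with pool 2 lowest in both. Boars averaged 5593 ± 881 and barrows 4832 ± 673 (SD, n = 3 each), a log2 difference of -0.21 (95% CI -0.49 to 0.07, limma adjusted p = 0.57). Within pairs of equal number the differences were close to each other, at -0.23, -0.18 and -0.21. With the block the 95% CI was -0.34 to -0.08 and the limma adjusted p 0.12, which does not pass. The difference was -0.34 without boar replicate 2 and -0.09 without barrow replicate 2. Leptin's brightest probe set rose by 0.79 more than adipsin, with separate groups (exact permutation p = 0.1, adjusted 0.23, n = 3 each).

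Resistin had signals of 15.1, 50.1 and 55.5 in boars and 42.0, 17.2 and 77.3 in barrows. All 6 lay below about 92.7, the signal that corresponds to the cutoff for testing. Detection calls were not used here, so whether these signals exceed background is unknown. The groups overlapped widely and the log2 difference was 0.10 (exact permutation p = 0.9, n = 3 each). The sign depended on single pools, with -0.28 without boar replicate 1 and -0.27 without barrow replicate 3. Signals of different probe sets depend on their probes, so the 5 genes were not ranked by level.

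The arrays of both groups were alike in what the controls show of RNA quality. The log2 ratio of the 3′ to the 5′ control signal reached 2.03 ± 0.08 in boars and 2.0 ± 0.14 in barrows for actin (n = 3 each, ± SD, exact permutation p = 0.8), and 1.31 ± 0.06 and 1.28 ± 0.18 for GAPDH (exact permutation p = 0.8). Adipocyte markers were bright, as the label of the tissue asks: 7 of 12 listed markers had a probe set, their summed signal ran from 68075 to 72586 in boars and from 65719 to 70561 in barrows, and 0 of the 7 passed (median log2 difference -0.06). Over all genes in their brightest tested probe set 1.51% passed, 3.1% passed with the block and 13.7% had an unadjusted limma p under 0.05. Of all these genes 48.5% had a log2 difference above 0. In bulk tissue, fewer cells of a type and less RNA per cell cannot be told apart. Liver also makes angiotensinogen, and of 11 hepatocyte markers with a probe set 8 lay below the tested range, albumin (ALB) among them with mean signals of 87.7 in boars and 65.7 in barrows. The sum of the hepatocyte markers ran from 6421 to 7129 in boars and from 5903 to 6606 in barrows, most of it the apolipoprotein APOA1. Macrophage markers, whose cells are a source of resistin in some species, were below 0 in 7 of 8 with 0 past the threshold (median -0.26, 4 of 8 at an unadjusted limma p under 0.05), and with the block 1 fell, the complement gene C1QA (-0.44, limma adjusted p = 0.035). They had summed signals of 8767 to 11113 in boars and 8267 to 9587 in barrows. Endothelial markers were below 0 in 7 of 8, with 1 fall and summed signals of 16096 to 16809 in boars and 14228 to 15138 in barrows. The fall was that of TEK, the angiopoietin receptor (-0.47, limma adjusted p = 0.047). Another tested TEK probe set had -0.20 with overlapping groups (limma adjusted p = 0.73). Stromal markers had 0 of 8 past the threshold (median -0.05), and with the block 1 fell, the matrix gene DPT (-0.32, limma adjusted p = 0.041), with summed signals of 31630 to 34807 in boars and 27392 to 36331 in barrows. Of 3 tested skin and gland markers 1 rose, PIP, a secreted gland protein, with 13.7, 3.83 and 29.9 in boars and 207, 1508 and 219 in barrows (limma adjusted p = 0.018, and 0.024 with the block), and the summed signals of that list were 528 to 620 in boars and 751 to 2089 in barrows. The boar signals of PIP lay below the tested range. Of the red blood cell markers 0 of 3 passed, of the lymphocyte markers 0 of 2, and the skeletal muscle markers all lay below the tested range, with sums of 169 to 184 in boars and 123 to 212 in barrows. The part of these cells in the adipokine results was not tested.

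**Figure D4:**
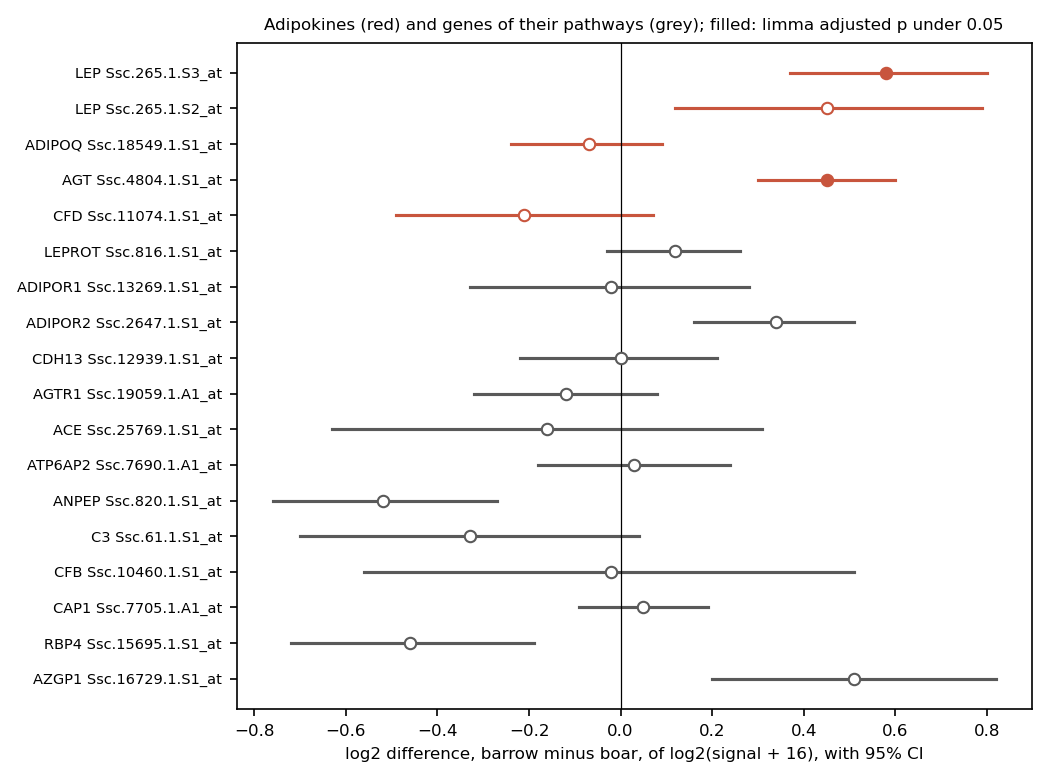
Log2 difference (barrow minus boar) with its 95% CI from the limma fit for the 5 tested adipokine probe sets (red) and for 13 genes of their pathways, each in its brightest tested probe set (grey). Filled points have an adjusted p under 0.05. Among the genes plotted only the LEP set S3 and AGT are filled, at 0.58 and 0.45. The intervals of the LEP set S2, ADIPOR2, ANPEP, RBP4 and AZGP1 exclude 0 without passing the adjusted threshold. The 13 genes are a selection from the lists, and C1QTNF3, which passed with a larger difference (1.67, limma adjusted p = 5.9e-04), is not plotted.

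Genes that receive or pass on the adipokine signals were described from lists, each gene by its brightest tested probe set. Over all 5356 genes so tested, of which 1.51% passed, the median log2 difference was -0.005. Of the leptin receptor and signalling genes 8 of 13 were tested, and 0 rose and 0 fell, also with the block, with 0 at an unadjusted p under 0.05 and a median of -0.05. The leptin receptor LEPR itself had signals of 11.5 to 26.8 in boars and 13.5 to 22.3 in barrows, below the tested range. LEPROT, a membrane protein that limits the receptor's surface level and shares part of its gene, had 5011, 5195 and 5467 in boars and 5810, 5535 and 5665 in barrows, a log2 difference of 0.12 (limma adjusted p = 0.53). The transcription factors that leptin's receptor activates showed small differences, STAT3 at -0.10 and STAT5A at -0.10 (limma adjusted p = 0.70 and 0.75).

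Of 12 tested genes for adiponectin receptors, signalling and assembly 0 passed, with 1 at an unadjusted p under 0.05 and 10 below 0 (median -0.06). ADIPOR2 was that 1 gene. It had signals of 8762, 9772 and 8546 in boars and 11390, 12352 and 10527 in barrows, and the groups did not overlap. Its log2 difference was 0.34 (95% CI 0.16 to 0.51, limma adjusted p = 0.080), and it rose with the block (limma adjusted p = 0.020). Its other probe set had 0.12 with overlapping groups (limma adjusted p = 0.73). The other receptor, ADIPOR1, had 870, 939 and 785 in boars and 789, 1061 and 733 in barrows (-0.02, limma adjusted p = 0.97, and 0.00 with centred arrays). CDH13, T-cadherin, which binds adiponectin on vessel walls, had means of 2317 ± 98.7 and 2320 ± 280 (SD, n = 3 each, limma adjusted p = 0.99). APPL1, an adaptor that binds adiponectin receptors, had -0.21 with separate groups (limma adjusted p = 0.51), and ERP44, a chaperone that holds adiponectin in the secretory pathway, had -0.13 (limma adjusted p = 0.67).

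In the renin-angiotensin system 10 of 18 genes were tested and 0 passed, with 2 at an unadjusted p under 0.05 and a median of 0.01. ANPEP, aminopeptidase N, which trims angiotensin III, had 1944, 1581 and 1846 in boars and 1287, 1083 and 1373 in barrows. All barrow pools lay below all boar pools, with a log2 difference of -0.52 (95% CI -0.76 to -0.27, limma adjusted p = 0.063), and it fell with the block (limma adjusted p = 0.013). CTSD, a lysosomal protease that can cut angiotensinogen, had 2292, 3060 and 2381 in boars and 3125, 3126 and 3273 in barrows, a log2 difference of 0.31 (limma adjusted p = 0.25, and 0.15 with the block). The angiotensin II receptor AGTR1 had 5687, 4856 and 5417 in boars and 5280, 4346 and 5102 in barrows, with overlapping groups and a log2 difference of -0.12 (limma adjusted p = 0.67). Angiotensin-converting enzyme ACE had -0.16 (limma adjusted p = 0.84) and the prorenin receptor ATP6AP2 0.03 (limma adjusted p = 0.95). Angiotensinogen was thus called while 0 of these 10 genes were, although the difference between them was not tested.

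The alternative complement pathway, which adipsin starts, had 6 of 14 genes tested and 0 past the threshold, with or without the block, 0 at an unadjusted p under 0.05, and 5 below 0 (median -0.14). C3, the central protein of the cascade, had 396, 364 and 411 in boars and 310, 237 and 391 in barrows, a log2 difference of -0.33 (limma adjusted p = 0.47), which was -0.16 without barrow replicate 2 and -0.50 without barrow replicate 3. Factor B, CFB, the protein that adipsin cuts, had -0.02 in a dim probe set (limma adjusted p = 0.99). The membrane regulators CD46 and CD55 had -0.11 and -0.17 (limma adjusted p = 0.61 and 0.67). CAP1, which binds resistin on monocytes, had 3993, 4003 and 3939 in boars and 4168, 4132 and 4085 in barrows. These groups were separate, yet the log2 difference was 0.05 (limma adjusted p = 0.81). The 2 other listed genes tied to resistin, decorin (DCN) and TLR4, had -0.03 and 0.01 (limma adjusted p = 0.93 and 0.98).

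Among 19 tested genes for other factors that fat secretes 1 rose and 0 fell (median -0.02), and with the block 2 rose and 1 fell. The gene that rose was C1QTNF3, which shares the C1q domain of adiponectin. It had 315, 351 and 346 in boars and 1229, 873 and 1275 in barrows (log2 difference 1.67, 95% CI 1.36 to 1.99, limma adjusted p = 5.9e-04), against -0.07 for adiponectin. RBP4, the retinol carrier of blood, had 3032, 2279 and 2422 in boars and 2114, 1701 and 1786 in barrows, with a log2 difference of -0.46 (limma adjusted p = 0.12), and it fell with the block (limma adjusted p = 0.013). AZGP1, a lipid-mobilising glycoprotein, had 924, 1161 and 785 in boars and 1298, 1540 and 1245 in barrows, with 0.51 (limma adjusted p = 0.13). It rose with the block (limma adjusted p = 0.021). The other probe sets of RBP4 and AZGP1 lay below the tested range, with overlapping groups and log2 differences of 0.19 and 0.07. Of 10 tested transcription factors known to act on adipokine genes 0 passed, also with the block, 1 had an unadjusted p under 0.05, and the median was 0.00. That was CEBPD, a factor of early fat cell differentiation, at 0.17 (limma adjusted p = 0.31) in its brightest probe set and 0.00 and -0.05 in its others. The estrogen receptor ESR1 had 0.33 (limma adjusted p = 0.54) and FOXO1 -0.10 (limma adjusted p = 0.70). ESR1 was dim, with signals of 87.5, 90.4 and 82.1 in boars and 132, 110 and 98.9 in barrows. Its boar signals lay below the tested range, so it entered the fit only through the barrow arrays.

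The genes whose signals followed the adipokines most closely over the 6 arrays were listed by Pearson correlation among about 7190 probe sets of other named genes. With 6 arrays high values are common: 162 probe sets had r above 0.9 with leptin, 148 with angiotensinogen, 89 with adipsin and 82 with adiponectin. Closest to the brightest leptin probe set were GCAT (r = 0.993), FKBP14 (0.992), CDKN1A (0.991) and NEK6 (0.991), whose log2 differences between the groups were 0.46, 0.29, 0.24 and 0.24 and did not pass (limma adjusted p from 0.15 to 0.38). Closest to angiotensinogen were AIFM1 (r = 0.995), TMEM160 (0.986), SDHA (0.984) and the hexokinase HK1 (0.982). Within groups their r with angiotensinogen was 0.93, 0.84, 0.79 and 0.91. Of these, SDHA and HK1 had log2 differences of 0.30 and 0.42, which did not pass (limma adjusted p = 0.067 and 0.062), and both rose with the block (0.040 and 0.036). The correlation over all 6 arrays includes the difference between the groups. A rise in genes picked by it was therefore largely set by the choice and is no separate result. Leptin and angiotensinogen correlated with each other at r = 0.94 (rho 0.89), and at 0.30 once each group was centred on its own mean.

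Adiponectin and adipsin were followed by other genes. Closest to adiponectin were RBM17 (r = 0.997), SARNP (0.982), FAM210B (0.981) and SRSF9 (0.980), each with r of 0.98 or more also within groups and with log2 differences of -0.05, -0.06, -0.24 and -0.13. Closest to adipsin were IRF2 (r = 0.996), FAR1 (0.986), TXNDC15 (0.986) and the angiotensin receptor AGTR1 (0.984, and 0.98 within groups). Adipsin and AGTR1 ranked all 6 arrays in the same order, with boar replicate 1 highest and barrow replicate 2 lowest. Adiponectin correlated with leptin's brightest probe set at -0.18, with angiotensinogen at -0.24 and with adipsin at -0.25, all over 6 arrays. After centring each group on its own mean these values were 0.65, 0.52 and -0.55. The sign thus changed for leptin and for angiotensinogen.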

How the data were processed

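Per the submitters' processing notes, the deposited values are signal intensities from MAS5, the Affymetrix summary of each probe set, for which no version or setting was found in the sources used here. The intensity values of every deposited array had a 2% trimmed mean near 500 (500.09 to 500.1), and medians ran from 162.3 to 173.3. Gene symbols came from the platform annotation: 10099 of the 24123 probe sets had 1 symbol, 198 several and 13826 none. All 5 member symbols are in the RefSeq table (Sscrofa11.1). Coordinates were not used, since the files state no build.

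Values were kept at the authors' scaling, transformed to log2(signal + 16), and the upper 60% of the 23999 non-control probe sets by mean were tested, barrow minus boar, with limma 3.58.1 in R 4.3.3 (lmFit, eBayes with an intensity trend, 2-sided, Benjamini-Hochberg, threshold 0.05). Folds refer to that scale and understate changes of dim genes. Probe sets outside the fit and within-array ratios were tested by exact permutation (scipy 1.17.1). The fit was also run on simulated arrays with independent noise, a check of the code that does not bear on the differences reported here. The number of arrays limits the precision.

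Deviations from group means correlated at 0.12, 0.166 and 0.261 between pools of equal number, all above the minimum of 0.1, so equal numbers were treated as pairs, although the design text does not link a number to families. The members, gene lists and naming rules were chosen with earlier results of these data known. The rule named all member probe sets, 11 receptors and partners where present, up to 3 further genes per list by smallest p, any called gene, and the 4 closest genes by correlation. CD59 was named outside this rule, because its probe sets differed. 1 item is not reported here.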

Additional observations from a re-analysis of the deposited data

How the results depend on the processing

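Changes of pseudocount, filter, scaling, variance model, block and single pools were tried, and no adipokine call changed with pseudocount 1 or 64, no filter, the upper 40%, quantile normalization, centred arrays, array weights or the replicate block. The count of called probe sets, 167, was 96 without a filter, 338 with the replicate block, 32 without the intensity trend, 425 with array weights and 24 to 291 with 1 pool left out. Without the intensity trend LEP in its probe set S3 (0.58, limma adjusted p = 0.11) and AGT (0.45, limma adjusted p = 0.14) lost their calls. With 1 pool left out the LEP set S3 ran from 0.52 to 0.64. The LEP set S2 ran from 0.27 to 0.56 and passed in none of these fits. AGT ran from 0.39 to 0.50, ADIPOQ from -0.14 to 0.00 and CFD from -0.34 to -0.09. The 5′ leptin control ran from -0.21 to 0.16, the middle control from -0.14 to 0.27 and RETN from -0.28 to 0.48. Settings chosen after seeing the data were the limma fit of RETN without a filter (0.10, same sign), the list counts, and every alternative for single pathway genes, the block included. With the replicate block and with array weights 1 gene of the adiponectin list (ADIPOR2) and 1 of the renin-angiotensin list (ANPEP) were called, and with the block 3 of the other secreted factors. With 1 pool left out the renin-angiotensin count ran from 0 to 2 (ANPEP and CTSD, without boar replicate 2) and that of the other factors from 1 to 2. Small differences changed sign: with centred arrays ADIPOR1 had 0.00 and CDH13 0.02, and with array weights CDH13 0.04, ACE 0.04 and DCN 0.04. With 1 pool left out ADIPOR1 ran from -0.18 to 0.08, CDH13 from -0.09 to 0.08, ATP6AP2 from -0.03 to 0.12, ACE from -0.40 to 0.00, CFB from -0.25 to 0.21, TLR4 from -0.05 to 0.13, DCN from -0.10 to 0.08, and the 3′ to 5′ ratios from -0.09 to 0.05 for actin and from -0.11 to 0.06 for GAPDH. The cause was not tested. Detection calls were not used here, so how far the dim LEPR and RETN signals stand above background is not known.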
